A study of Homo sapiens with 10 samples.

Results

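The genes described here encode 10 integrin subunits, 5 alpha subunits (ITGA2, ITGA3, ITGA5, ITGA6 and ITGAV) and 5 beta subunits (ITGB1, ITGB3, ITGB4, ITGB6 and ITGB8). They were chosen by name, as the rows that carry these symbols among the 23170 gene rows of each expression table, together with their 18 isoform rows among 37557. The 10 RNA-seq samples come from PC3, an established human prostate cancer line, in 4 derived lines. PC3-Epi (2 samples, labelled as the epithelial control) is a population that carries a luciferase vector and was picked from colonies for light emission and epithelial morphology. PC3-EMT14 (3 samples) is the mesenchymal population recovered after co-culture of PC3-Epi with macrophages and serial passage. PC3-EMT14-OVOL1 (3 samples) was made from PC3-EMT14 by lentiviral overexpression of the zinc finger transcription factor OVOL1, and PC3-EMT14-OVOL2 (2 samples) likewise with OVOL2. All 4 lines are therefore PC3-Epi cells or descend from them, and each line is a single selected population. The study describes the PC3-EMT14 cells of this comparison as parental, so effects of the lentiviral vector and of the OVOL transgene cannot be told apart. The constructs also differed, that of OVOL2 carrying a V5 epitope tag, so construct and transgene cannot be told apart between the OVOL lines.

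Integrins are cell surface receptors made of 1 alpha and 1 beta subunit that join the extracellular matrix outside the cell to the cytoskeleton within it. The pairing decides the ligand: ITGB1 pairs with many alpha subunits, among them ITGA2 to bind collagen, ITGA3 and ITGA6 to bind laminin, and ITGA5 to bind fibronectin. ITGB4 pairs with ITGA6 alone, in the hemidesmosome that anchors epithelial cells to laminin through keratin filaments. ITGAV pairs with ITGB1, ITGB3, ITGB6 and ITGB8 among others, and its pairs with ITGB6 and ITGB8 are known for releasing active TGF-beta from its latent complex. A shift of integrins is a known part of the epithelial to mesenchymal transition (EMT), in which ITGA5 and ITGB3 are typically associated with the mesenchymal state and ITGB4 and ITGB6 with epithelial cells.

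Each line has 1 pooled value per gene in each table, in fragments per transcript length and per library size (FPKM), so the values carry no spread between samples, and the depth behind a value is unknown. The tests that the authors deposited with the tables were not used. Every difference below is the ratio of the 2 values of a table, given without a test or replicate check. A gene was counted as past 2-fold when this ratio was at least 2 or at most 0.5 and the gene reached 1 FPKM in the higher line. Levels from different tables are set side by side below although the tables were normalized separately. PC3-EMT14, which is in 3 tables, had FPKM values that differed between them by a median factor of 0.969 to 1.01, and the 10 subunits followed that factor (0.968 to 1.01).

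The overexpressed genes fitted the labels. OVOL1 was at 0.0238 FPKM in PC3-EMT14 and 11.3 in PC3-EMT14-OVOL1, and OVOL2 was at 0.370 in PC3-EMT14 and 831 in PC3-EMT14-OVOL2, against 4.25 and 9.91 in PC3-Epi. The OVOL2 transgene thus lay much further above its PC3-Epi level than the OVOL1 transgene. Level and identity of the transgene cannot be told apart between the OVOL lines. Of 6 epithelial markers, 3 were past 2-fold higher in the OVOL1 line, 4 in the OVOL2 line and 5 in PC3-Epi relative to PC3-EMT14. Of all genes that reached 1 FPKM, 2.43%, 4.42% and 7.37% were past 2-fold higher. Among the markers EPCAM and OCLN were higher in all 3 lines, KRT8 in the latter pair and KRT18 in PC3-Epi. KRT19 stayed within 2-fold in all 3 lines, going from 656 to 608 FPKM with OVOL1 and from 671 to 742 in PC3-Epi. CDH1 (E-cadherin) went from 0.981 to 16.2, from 0.971 to 39.2 and from 1.00 to 50.6 FPKM. Of 4 mesenchymal markers, 0, 3 and 2 were past 2-fold lower, against 1.54%, 2.93% and 8.34% of all genes. ZEB1, a repressor of epithelial genes, was lower in the OVOL2 line and PC3-Epi. FN1 was past 2-fold lower in the OVOL2 line only, and CDH2 stayed within 2-fold in all 3 lines. VIM (vimentin) went from 265 to 183, from 262 to 76.9 and from 271 to 42.5 FPKM. Since PC3-EMT14 came out of a co-culture with macrophages, 13 macrophage and leukocyte markers were also read. Of these 13, 10 were under 0.1 FPKM in both lines of every table, PTPRC (the pan-leukocyte antigen CD45) among them, and only CD68 and ITGB2 reached 1 FPKM. Summed over the 13 markers, the level was 65.6 to 67.7 FPKM in PC3-EMT14, 74.6 in the OVOL1 line, 87.7 in the OVOL2 line and 33.9 in PC3-Epi, nearly all of it CD68 (a lysosomal protein) and ITGB2. The part of other cells in the values below was not tested.

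Of the 10 subunits, 5 were past 2-fold in at least 1 of the 4 tables (ITGA5, ITGB3, ITGB4, ITGB6 and ITGB8), and 3 of these matched an entry in the RefSeq promoter table, ITGA5, ITGB6 and ITGB8. Over the whole set, 7 of 10 subunits matched. The 250 bases before the start site of these 3 genes are shown because their levels separate PC3-Epi from PC3-EMT14. They were taken from RefSeq (GRCh38.p14), were found once each in GRCh37, the build of the expression tables (hg19), and are printed 5′ to 3′ along the gene, in lower case, with matches to the searched motifs in capitals. The motifs were CACCTG, the E-box type known to be bound by ZEB1, its variant CAGGTA, and the general OVOL consensus, each on both strands.
ITGA5, chr12:54813051-54813300, minus strand: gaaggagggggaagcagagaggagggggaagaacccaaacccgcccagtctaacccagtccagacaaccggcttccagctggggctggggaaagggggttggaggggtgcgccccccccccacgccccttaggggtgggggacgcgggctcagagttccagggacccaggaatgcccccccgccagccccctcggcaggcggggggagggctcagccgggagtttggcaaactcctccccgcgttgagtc
ITGB6, chr2:161056784-161057033, minus strand: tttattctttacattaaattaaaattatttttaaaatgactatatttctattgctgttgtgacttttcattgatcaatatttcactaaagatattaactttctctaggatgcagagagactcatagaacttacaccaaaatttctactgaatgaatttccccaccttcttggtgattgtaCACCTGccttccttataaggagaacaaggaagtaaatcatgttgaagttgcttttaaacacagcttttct
ITGB8, chr7:20370273-20370522, plus strand: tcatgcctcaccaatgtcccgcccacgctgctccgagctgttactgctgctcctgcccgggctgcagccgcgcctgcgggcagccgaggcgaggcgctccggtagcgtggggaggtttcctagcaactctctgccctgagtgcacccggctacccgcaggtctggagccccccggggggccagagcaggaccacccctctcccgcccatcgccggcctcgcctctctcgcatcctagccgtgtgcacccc

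The ITGB6 stretch held 1 CACCTG, 70 bases before the start site, while the stretches of ITGA5 and ITGB8 held none of the 3 motifs. CACCTG or its reverse complement CAGGTG was found in 17.5% of 35116 promoter stretches of this length, CAGGTA or TACCTG in 7.99%, and the OVOL consensus in 0.877%. The ITGB6 stretch had 30% G and C bases, against 70% for ITGA5 and 71.2% for ITGB8. The RefSeq start lies at the start given in the expression table for ITGA5, and upstream of it by 193 bases for ITGB6 and 202 bases for ITGB8, so the printed bases are not always next to the start the table gives. Among the 4 matched subunits that stayed within 2-fold, ITGA6 alone held any of these motifs, 2 CACCTG before its first start and 1 CAGGTA before its second.

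**Figure D1:**
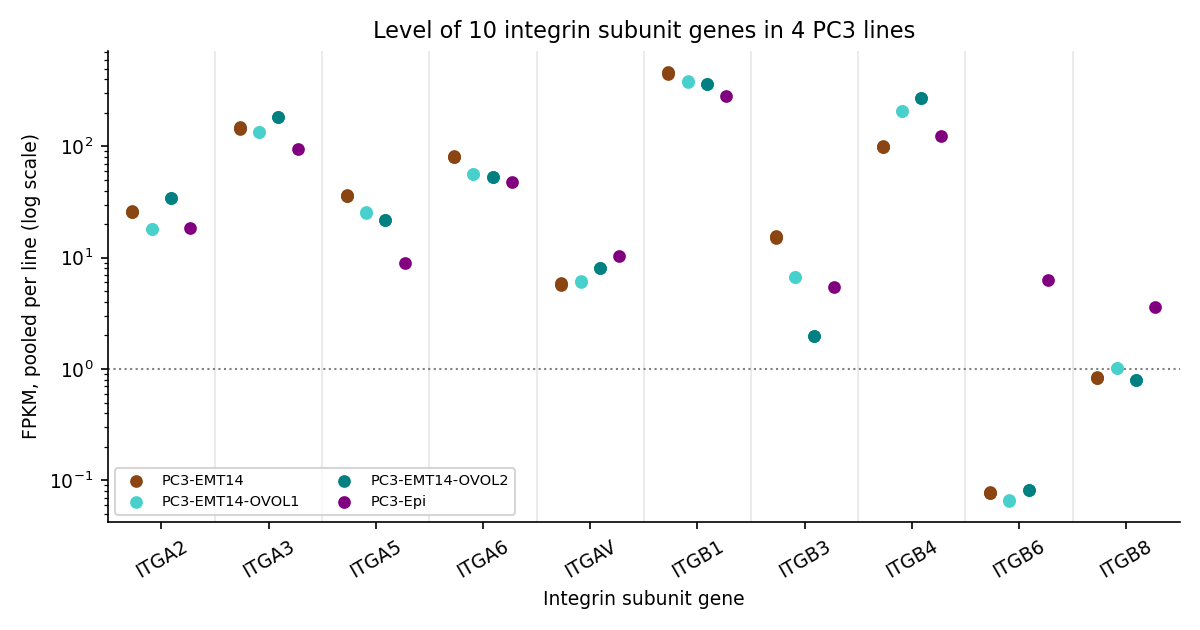
Level of each integrin subunit gene in the 4 lines, in FPKM on a log scale; each point is 1 pooled value of a line in 1 table, so that PC3-EMT14 has 3 nearly coincident points and each OVOL line 2, and the dotted line marks 1 FPKM. ITGB1 is the most abundant subunit in every line, ITGB6 is under 0.1 FPKM in every line but PC3-Epi, and ITGB3 is highest in PC3-EMT14 and lowest in the OVOL2 line.

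Relative to PC3-EMT14, 2 of the 9 subunits that reached 1 FPKM were past 2-fold in the OVOL1 line (ITGB4 higher, ITGB3 lower), against 3.97% of all genes that reached it. In the OVOL2 line the count was 2 of 8, with the same pair of genes in the same directions, against 7.35% of all genes. In PC3-Epi it was 4 of 10 (ITGB6 and ITGB8 higher, ITGA5 and ITGB3 lower), against 15.7%. Between the OVOL lines, read directly in their own table, 1 of 9 subunits was past 2-fold (ITGB3, lower in the OVOL2 line), against 3.08%. These counts are small, and the first 3 comparisons share the PC3-EMT14 samples. The subunits and the gene lists were also chosen with earlier results of these data known. Counts set against all genes, here and below, are therefore description only and do not show an excess of changed integrin genes. The median log2 ratio of the subunits that reached 1 FPKM was -0.24, 0.01, -0.59 and -0.08 in the 4 comparisons, and the median over all such genes was 0.00, -0.04, -0.01 and -0.04.

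**Figure D2:**
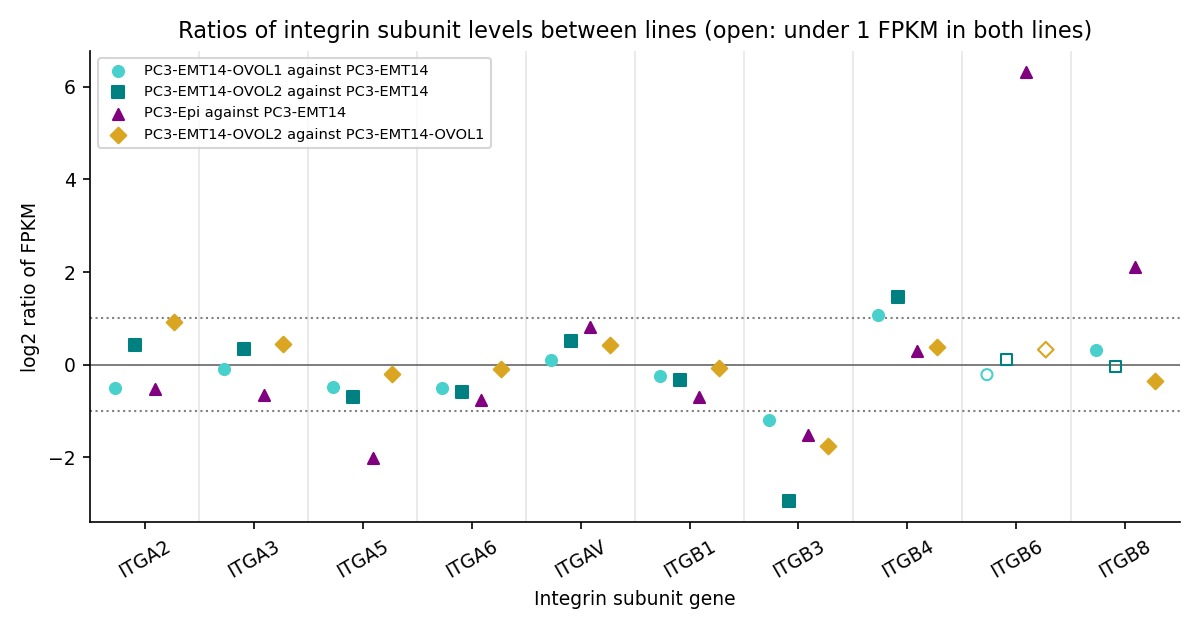
Log2 ratio of FPKM of each integrin subunit in 4 comparisons, each point the ratio of 2 pooled values and the dotted lines at 2-fold; open symbols are under 1 FPKM in both lines. ITGB3 lies below the lower line in all 4 comparisons, ITGB4 above the upper line in the OVOL lines only (1.07 and 1.45, and 0.30 in PC3-Epi), and ITGB6 and ITGB8 above it in PC3-Epi only.

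Laminin receptors accounted for the member that was higher in both OVOL lines. ITGB4 (XLOC_008816, chr17:73717516-73753899, plus strand), the hemidesmosome subunit, was at 99.4, 98.3 and 102 FPKM in PC3-EMT14, 209 in the OVOL1 line, 269 in the OVOL2 line and 125 in PC3-Epi. Both OVOL lines lay above PC3-Epi, so ITGB4 was 2.10-fold higher with OVOL1 and 2.74-fold with OVOL2, but only 1.23-fold higher in PC3-Epi. Its log2 ratio of 1.07 with OVOL1 stands just past the 2-fold line. In the direct table ITGB4 was at 207 FPKM with OVOL1 and 269 with OVOL2, a log2 ratio of 0.38. ITGA6 (XLOC_011904, chr2:173292314-173371181, plus strand), the only alpha partner of ITGB4, went the other way and was highest in PC3-EMT14, at 79.4 to 82.0 FPKM, with 56.8 in the OVOL1 line, 52.9 in the OVOL2 line and 48.0 in PC3-Epi. None of these ITGA6 ratios reached 2-fold (log2 ratios of -0.50, -0.59 and -0.77), and the OVOL lines were close to each other (log2 ratio of -0.09).

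The level of ITGB4 over that of ITGA6, both per length and within the same line, was 1.24 in PC3-EMT14, 3.68 in the OVOL1 line, 5.08 in the OVOL2 line and 2.60 in PC3-Epi. The beta subunit was thus the more abundant transcript of this pair in every line, by the widest margin in the OVOL2 line. ITGA3 (XLOC_008692, chr17:48133340-48167849, plus strand), the other laminin-binding alpha subunit and the most abundant alpha subunit in every line, was at 143 to 148 FPKM in PC3-EMT14. It was at 136 FPKM in the OVOL1 line, 182 in the OVOL2 line and 93.7 in PC3-Epi, log2 ratios of -0.09, 0.34 and -0.66. ITGA3 was therefore above PC3-EMT14 in the OVOL2 line and below it in PC3-Epi, within 2-fold each time. ITGA6 over ITGA3 was 0.554 in PC3-EMT14, 0.418 in the OVOL1 line, 0.291 in the OVOL2 line and 0.513 in PC3-Epi.

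Genes for some ligand and anchoring partners of these receptors were highest in the OVOL2 line. LAMA3, a laminin chain of epithelial basement membranes, was at 64.1 to 66.2 FPKM in PC3-EMT14, 77.4 in the OVOL1 line, 158 in the OVOL2 line and 63.7 in PC3-Epi. LAMB3, another chain of such laminin, was at 70.8 to 73.2 FPKM in PC3-EMT14, 83.6 in the OVOL1 line, 193 in the OVOL2 line and 49.8 in PC3-Epi. COL17A1, the transmembrane collagen of hemidesmosomes, was at 1.57 to 1.62 FPKM in PC3-EMT14, 2.79 in the OVOL1 line, 7.98 in the OVOL2 line and 1.11 in PC3-Epi. Against PC3-EMT14 these genes were past 2-fold in the OVOL2 line only, and they were also past 2-fold higher in the OVOL2 than in the OVOL1 line. CD151, a tetraspanin that associates with laminin-binding integrins, stayed within 2-fold in every comparison, with log2 ratios of -0.05, -0.03 and -0.72 against PC3-EMT14.

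ITGA2 (XLOC_016240, chr5:52285156-52390609, plus strand), the collagen-binding subunit, was among the 5 alpha subunits the gene that set the OVOL lines furthest apart. It was at 25.6 to 26.4 FPKM in PC3-EMT14, 18.3 in the OVOL1 line, 34.4 in the OVOL2 line and 18.3 in PC3-Epi. The OVOL1 line and PC3-Epi lay below PC3-EMT14 (log2 ratios of -0.50 and -0.53) and the OVOL2 line above it (0.43). In the direct table ITGA2 was 1.90-fold higher with OVOL2 than with OVOL1 (18.1 and 34.4 FPKM), just short of 2-fold, and 97.8% of genes past the floor of 1 FPKM had a lower ratio.

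ITGA5 (XLOC_005257, chr12:54789045-54813050, minus strand), the alpha subunit of the main fibronectin receptor, was highest in PC3-EMT14, at 35.6 to 36.8 FPKM. It was at 25.7 FPKM in the OVOL1 line, 22.0 in the OVOL2 line and 9.04 in PC3-Epi. The order of the lines was the same as for ITGA6, with a wider range: ITGA5 was 4.07-fold lower in PC3-Epi (log2 ratio of -2.02) but stayed within 2-fold in the OVOL lines (-0.49 and -0.70). Its level over that of ITGA3 was 0.248 in PC3-EMT14, 0.189 and 0.121 in the OVOL1 and OVOL2 lines and 0.0965 in PC3-Epi. FN1 (fibronectin), its ligand, was at 36.0, 35.6 and 36.8 FPKM in PC3-EMT14, 18.4 in the OVOL1 line, 16.5 in the OVOL2 line and 33.8 in PC3-Epi. The receptor subunit was thus lowest in PC3-Epi, and the ligand in the OVOL lines.

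ITGB1 (XLOC_002739, chr10:33189246-33247293, minus strand), the common beta subunit, had the highest level of the 10 in every line. It was at 449 to 463 FPKM in PC3-EMT14, 384 in the OVOL1 line, 359 in the OVOL2 line and 284 in PC3-Epi, with log2 ratios of -0.24, -0.32 and -0.70. ITGB1 was below its PC3-EMT14 level in all 3 other lines, though within 2-fold. ITGB1 over ITGB4 was 4.57 in PC3-EMT14, 1.84 in the OVOL1 line, 1.34 in the OVOL2 line and 2.27 in PC3-Epi, so the transcripts of the hemidesmosome subunit came closest to those of the common subunit in the OVOL2 line.

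ITGAV (XLOC_011939, chr2:187454790-187545628, plus strand), the alpha subunit that pairs with ITGB3, ITGB6 and ITGB8, was lowest in PC3-EMT14. It was at 5.68 to 5.86 FPKM there, 6.12 in the OVOL1 line, 8.11 in the OVOL2 line and 10.3 in PC3-Epi, which is 1.76-fold higher than PC3-EMT14 and within 2-fold. ITGB3 (XLOC_008666, chr17:45331208-45390077, plus strand), known for binding vitronectin and other ligands with the RGD tripeptide, was at 15.3, 15.1 and 15.6 FPKM in PC3-EMT14. It was at 6.72 FPKM in the OVOL1 line, 1.98 in the OVOL2 line and 5.48 in PC3-Epi. ITGB3 was 2.28-fold, 7.67-fold and 2.85-fold lower in these lines, the only member past 2-fold in all 3, and the OVOL2 line was below PC3-Epi.

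The direct table gave the same order for ITGB3, 6.64 FPKM with OVOL1 and 1.97 with OVOL2, 3.37-fold lower (log2 ratio of -1.75), and 0.615% of genes past the floor had a lower ratio. In all 3 lines ITGB3 was below and ITGAV above its PC3-EMT14 level, and ITGB3 over ITGAV was 2.67 in PC3-EMT14, 1.10 in the OVOL1 line, 0.243 in the OVOL2 line and 0.531 in PC3-Epi. ITGB3 transcripts exceeded those of ITGAV in PC3-EMT14 and stayed under them in the OVOL2 line and PC3-Epi.

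ITGB6 (XLOC_012552, chr2:160958233-161056590, minus strand), an epithelial beta subunit that partners ITGAV, was at 0.0763 to 0.0787 FPKM in PC3-EMT14, 0.0664 in the OVOL1 line and 0.0822 in the OVOL2 line. In PC3-Epi it was at 6.28 FPKM. The ratio of 79.7 (log2 ratio of 6.32) rests on a value under 0.1 FPKM, and the log2 ratio was 2.75 once 1 FPKM was added to both values. The OVOL lines were at the level of PC3-EMT14, which is too low for a ratio to be read. ITGB8 (XLOC_019410, chr7:20370725-20455382, plus strand), the other TGF-beta-activating partner of ITGAV, was at 0.822 to 0.848 FPKM in PC3-EMT14, 1.03 in the OVOL1 line, 0.804 in the OVOL2 line and 3.64 in PC3-Epi. ITGB8 was thus 4.29-fold higher in PC3-Epi (log2 ratio of 2.10, or 1.33 with 1 FPKM added) and near its PC3-EMT14 level in both OVOL lines.

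Read per ITGAV, ITGB6 was at 0.0134 in PC3-EMT14, 0.0108 and 0.0101 in the OVOL1 and OVOL2 lines and 0.608 in PC3-Epi, and ITGB8 was at 0.145, 0.168, 0.0991 and 0.352. Outside PC3-Epi the ITGB6 values rest on levels under 0.1 FPKM, too low for differences among them to be read. Of 14 ligands and TGF-beta activation genes, 12 reached 1 FPKM in each table. In the OVOL1 line 2 were higher and 2 lower, in the OVOL2 line 2 were higher and 3 lower, and in PC3-Epi 2 were higher and 2 lower. Over all genes 3.97%, 7.35% and 15.7% were past 2-fold in either direction in these comparisons. TGFB2, a latent growth factor, and THBS1 (thrombospondin), a matrix protein known to activate latent TGF-beta, were higher in all 3 lines. TGFB2, at 1.09 to 1.12 FPKM in PC3-EMT14, was at 3.44 in the OVOL1 line, 10.3 in the OVOL2 line and 24.9 in PC3-Epi. THBS1, at 6.09 to 6.29 FPKM, was at 15.8, 56.4 and 126 in the same order. The other TGF-beta genes, TGFB1 and TGFB3, were below PC3-EMT14 in all 3 lines, within 2-fold. Their log2 ratios were -0.13, -0.47 and -0.76 for TGFB1 and -0.40, -0.25 and -0.18 for TGFB3. LTBP1, which tethers latent TGF-beta to the matrix, was lower in the 3 lines (27.7, 14.7 and 8.89 FPKM, against 54.9 to 56.7 in PC3-EMT14), with OVOL1 at the 2-fold threshold itself. FBN1 (fibrillin), the matrix fibre to which LTBP1 attaches, was lower as well, at 2.84, 3.04 and 0.141 FPKM against 6.39 to 6.59. With 1 FPKM added to both values, the OVOL1 count became 2 higher and 0 lower, so LTBP1 and FBN1 were no longer past 2-fold there.

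As shares of the summed FPKM of the subunits of a kind, the 10 members held most of the integrin transcripts. Among 18 alpha subunits the 5 members held 81.9% in PC3-EMT14, 83.3% in the OVOL1 line, 87.6% in the OVOL2 line and 90.7% in PC3-Epi. Most of the rest was the entry that ITGA1 shares with the gene PELO, at 15.0% in PC3-EMT14 and 6.30% in PC3-Epi. All alpha subunits that are not members held 18.1% and 9.28% there. The part of PELO in the alpha shares and sums was not tested. Among 8 beta subunits the 5 members held 94.8%, 94.2%, 93.7% and 91.1% in the same order. ITGB1 took 75.6% of the beta transcripts in PC3-EMT14, 60.2% in the OVOL1 line, 53.3% in the OVOL2 line and 61.0% in PC3-Epi. ITGB4 took 16.6%, 32.8%, 39.9% and 26.8%. These shares do not depend on the scaling between lines, and ITGB4 had a larger share in PC3-Epi than in PC3-EMT14 although its own level was only 1.23-fold higher, because the summed beta transcripts went from 613 to 466 FPKM. The summed alpha transcripts went from 357 to 291 FPKM in the OVOL1 line, from 354 to 342 in the OVOL2 line and from 365 to 198 in PC3-Epi.

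**Figure D3:**
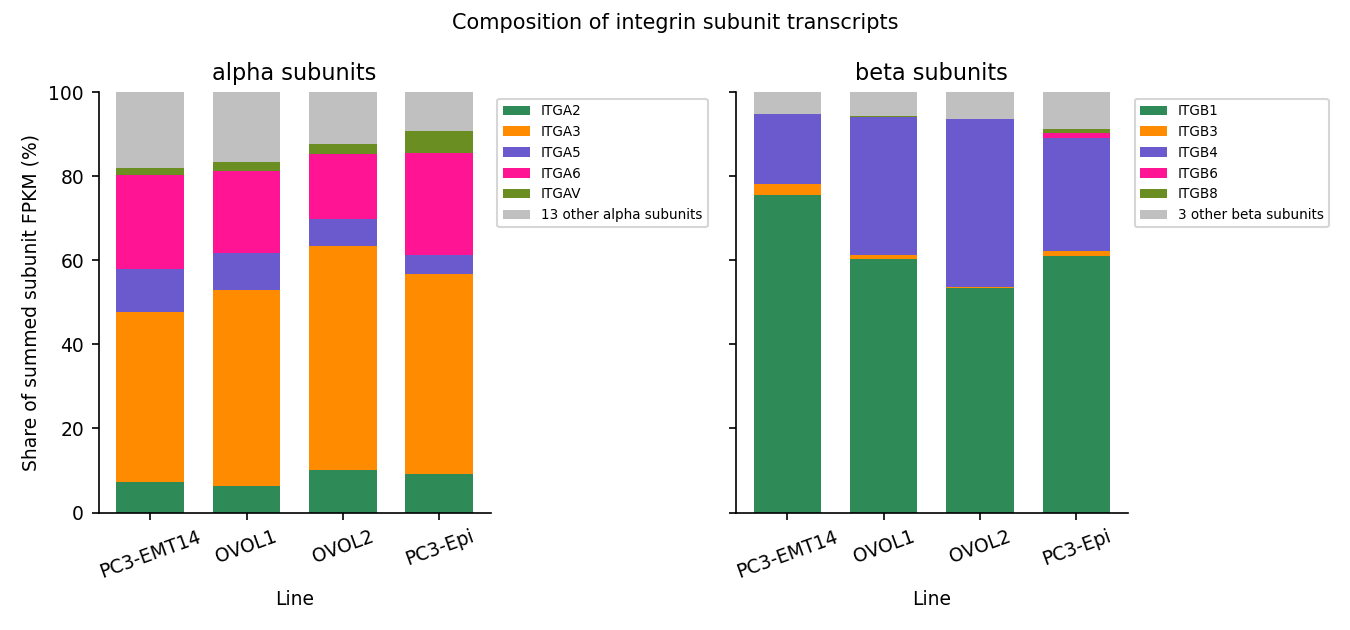
Share of each subunit in the summed FPKM of 18 alpha (left) and 8 beta (right) integrin subunits in the 4 lines, as stacked bars from pooled values, with PC3-EMT14 read from its table with PC3-Epi and each other line from its table with PC3-EMT14. ITGB4 takes 16.6% of beta transcripts in PC3-EMT14 and 39.9% in the OVOL2 line, and ITGA3 takes 40.6% of alpha transcripts in PC3-EMT14 and 53.2% in the OVOL2 line.

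Among the alpha subunits ITGA3 took 40.6% in PC3-EMT14, 46.6% in the OVOL1 line, 53.2% in the OVOL2 line and 47.4% in PC3-Epi. ITGA5 took 10.1%, 8.82%, 6.43% and 4.57%, and ITGAV 1.61%, 2.10%, 2.38% and 5.22%. The fibronectin-binding subunit thus had its smallest share, and ITGAV its largest, in PC3-Epi. Of the 16 integrin subunits that are not members, most stayed under 1 FPKM. In the OVOL1 line 0 of the 6 that reached it were past 2-fold, against 3.97% of all genes. In the OVOL2 line 1 of 7 was past it, ITGB2 (the leukocyte beta subunit), which was higher, against 7.35%. In PC3-Epi 3 of 6 were lower, ITGA1, ITGA7 and ITGA10, against 15.7% of all genes past 2-fold in either direction. These counts are small. ITGA1, a collagen-binding subunit that shares its gene entry with PELO, was at 53.1 to 54.8 FPKM in PC3-EMT14, 40.8 in the OVOL1 line, 33.9 in the OVOL2 line and 12.5 in PC3-Epi. ITGB2 was at 12.6 to 13.1 FPKM in PC3-EMT14, 23.0 in the OVOL1 line, 29.5 in the OVOL2 line and 20.4 in PC3-Epi.

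Of 23 integrin adaptors and focal adhesion genes, 21 reached 1 FPKM in each table, and 0 were past 2-fold in either OVOL line or between them. Over all genes the share was 3.97% with OVOL1, 7.35% with OVOL2 and 3.08% between the OVOL lines. In PC3-Epi 1 was higher and 2 were lower, against 15.7% of all genes past 2-fold in either direction. The higher gene was TNS3, a tensin that binds beta tails (from 18.3 to 41.7 FPKM). The lower ones were FERMT2 (kindlin-2, an integrin activator, from 78.9 to 27.2) and TLN2 (talin-2, from 1.42 to 0.628). FERMT2 was at 75.1 and 71.8 FPKM in the OVOL1 and OVOL2 lines, close to PC3-EMT14. The 21 adaptors had a median log2 ratio of -0.07, -0.09, -0.27 and 0.04 in the 4 comparisons.

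The isoform tables gave 18 rows for the 10 subunits, with 1 isoform each for ITGA2, ITGA5, ITGB3, ITGB6 and ITGB8. An isoform's share is its FPKM over the summed FPKM of its gene's isoforms, and a shift of at least 10 percentage points was counted as moved. Of the 5 subunits with at least 2 isoforms, 0 moved in the OVOL1 line, against 10.9% of all such genes, 0 in the OVOL2 line (17.2%), 2 in PC3-Epi (19.3%) and 0 between the OVOL lines (13.7%). The tables list isoforms by number, so the splice forms they stand for were not named, and splitting reads between isoforms of 1 gene is itself an estimate.

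In ITGB1, isoform TCONS_00004552 was at 2.61 to 2.68 FPKM in PC3-EMT14, 0.718 in the OVOL1 line, 3.65 in the OVOL2 line and 46.2 in PC3-Epi. Its share of ITGB1 was 0.563% in PC3-EMT14 and 16.3% in PC3-Epi, and it stayed at 0.187% and 1.02% in the OVOL lines. The main isoform, TCONS_00004554, went from 88.1% to 77.7% in PC3-Epi, and TCONS_00004553 from 11.3% to 6.04%. The lower gene level of ITGB1 in PC3-Epi was thus made of 2 lower isoforms and 1 higher one.

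In ITGB4, isoform TCONS_00014313 was at 14.1 to 14.6 FPKM in PC3-EMT14, 12.5 in the OVOL1 line, 14.9 in the OVOL2 line and 1.86 in PC3-Epi. The higher ITGB4 level in the OVOL lines was carried by TCONS_00014312, at 83.8 to 86.5 FPKM in PC3-EMT14, 195 in the OVOL1 line, 252 in the OVOL2 line and 123 in PC3-Epi. The share of TCONS_00014313 was 14.3% in PC3-EMT14, 6.0% and 5.52% in the OVOL1 and OVOL2 lines and 1.49% in PC3-Epi. In ITGA6 the lesser isoform, TCONS_00019268, was at 9.11 to 9.40 FPKM in PC3-EMT14, 2.69 in the OVOL1 line, 4.12 in the OVOL2 line and 1.08 in PC3-Epi. Its share was 11.5% in PC3-EMT14, 4.73%, 7.78% and 2.25%, a direction shared by the 3 lines, with the largest shift at 9.21 points. ITGA3 and ITGAV were each nearly all 1 isoform (at least 99.8% of the gene).

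**Figure D4:**
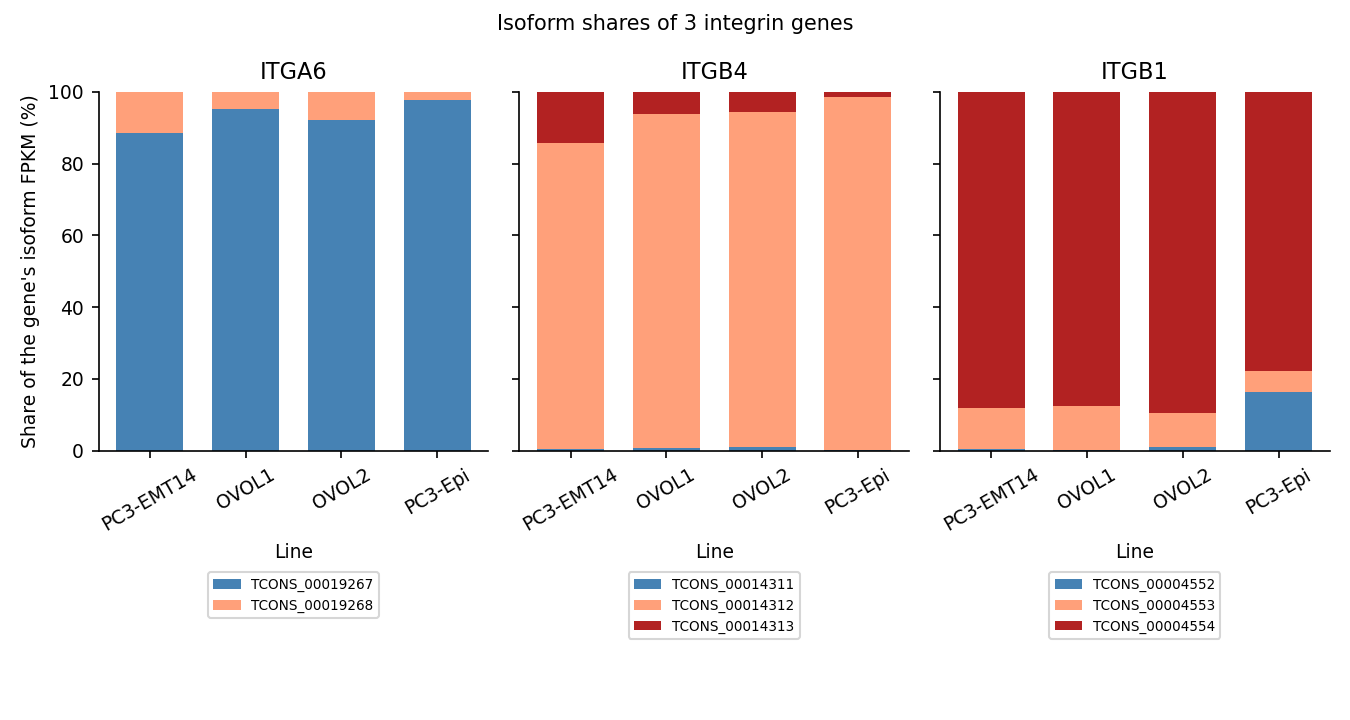
Share of each isoform in the summed isoform FPKM of ITGA6, ITGB4 and ITGB1 in the 4 lines, as stacked bars from pooled values. The share of TCONS_00014313 of ITGB4 is 14.3% in PC3-EMT14 and 1.49% in PC3-Epi, and that of TCONS_00004552 of ITGB1 is 0.563% in PC3-EMT14 and 16.3% in PC3-Epi.

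The genes around each subunit were read for the same comparisons, as the median log2 ratio of the 50 nearest genes past the floor, 25 on each side. In PC3-Epi against PC3-EMT14 these medians were 0.66 around ITGB6, 0.53 around ITGA6 and 0.44 around ITGAV, all on chromosome 2. The stretch around ITGA6 overlapped those around ITGB6 and ITGAV, so these are not separate readings. Around the other 7 subunits the medians lay between -0.27 and 0.06. In both comparisons of an OVOL line with PC3-EMT14 they lay between -0.20 and 0.08 around all 10. ITGB6 was far above its neighbours (log2 ratio of 6.32), ITGAV was 0.82 with neighbours at 0.44, and ITGA6 was below PC3-EMT14 (-0.77) while its neighbours were above it. The part of this regional difference in the ITGAV value was not tested.

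**Figure D5:**
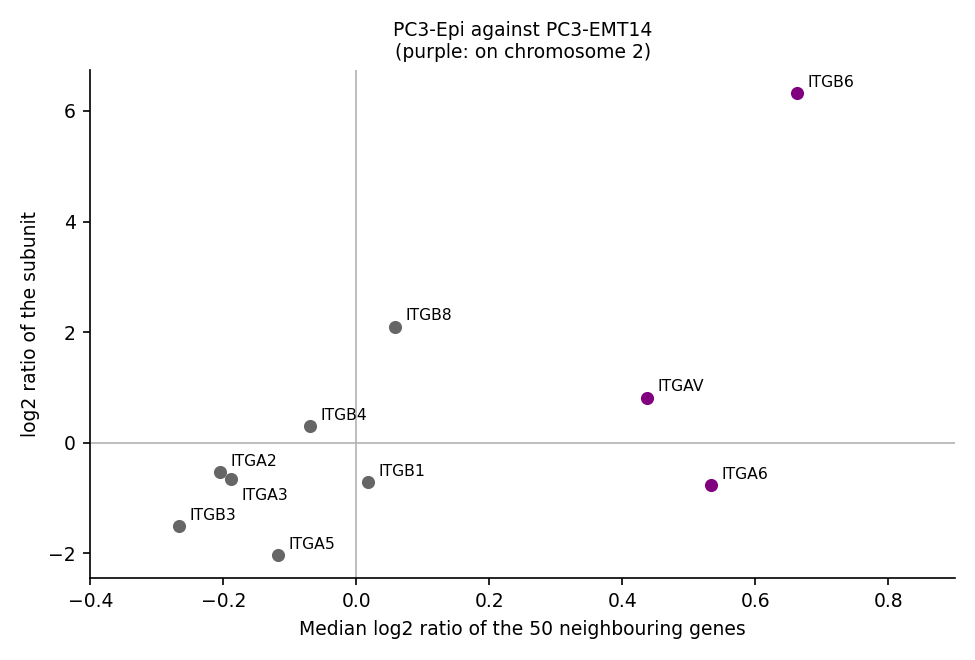
Log2 ratio of each integrin subunit in PC3-Epi against PC3-EMT14 (vertical axis) by the median log2 ratio of the 50 genes nearest to it on the chromosome (horizontal axis), from pooled FPKM. The 3 subunits on chromosome 2, in purple, have neighbours with medians of 0.44 to 0.66, and share some of these neighbours. The medians for the other 7 lie between -0.27 and 0.06.

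For the 5 subunits past 2-fold against PC3-EMT14, the genes with the nearest pattern were found among 12453 genes, by the root mean square difference of the 3 log2 ratios against PC3-EMT14. ITGA5 was closest to ARHGAP23 (0.08), the ITGA1 and PELO entry (0.09) and MAP1B (0.10). ITGB3 was closest to CNRIP1 (0.26), PLCXD3 (0.32) and FGF1 (0.44), and ITGB4 to ALS2CL (0.16), C21orf67 (0.16) and CCDC64 (0.18). No nearest gene is given for ITGB6, whose OVOL ratios are between values under 0.1 FPKM. ITGB8 was closest to SNORA5A (0.06), MCM10 (0.15) and NANOS1 (0.17). Its OVOL2 ratio is between values under 1 FPKM (0.822 and 0.804), as are both OVOL ratios of NANOS1. SNORA5A was at 1.15 to 1.19 FPKM in PC3-EMT14, so these matches rest on low values. The root mean square differences describe 3 ratios that share PC3-EMT14 and carry no test.

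In the annotation, 5 of the 10 genes share exonic bases with antisense genes (ITGA5, ITGA6, ITGAV, ITGB1 and ITGB8), and ITGB3 and ITGB6 share some with a gene on the same strand. Whether the counting used strand is not given in the sources used here, so reads of such partners cannot be told apart from those of the subunits. In bulk samples, fewer cells that express a subunit and less RNA per cell cannot be told apart. Differences between lines that arose when each population was selected cannot be told apart from those tied to its labelled state or transgene. The deposited group names end in II_trim for PC3-EMT14 and both OVOL lines but not for PC3-Epi. What this ending marks is not given. Any difference in handling that it stands for cannot be told apart from that between PC3-Epi and the other lines.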

How the data were processed

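RNA was sequenced as 50-base paired-end reads from 10 samples. FPKM values were made and deposited by the authors: reads were aligned with TopHat to UCSC hg19 and Cuffdiff pooled the 2 or 3 samples of a line into 1 upper-quartile normalized value per gene or isoform, in 8 tables, for genes and for isoforms in each of 4 comparisons. The tables also hold the authors' own fold changes, test statistics, p- and q-values and calls, which were not used. Depth per sample is unknown, so no interval or floor of detection was computed.

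Ratios were recomputed from the FPKM without a pseudocount in Python 3.11.15 with numpy 2.4.6 and pandas 2.3.3, and plots were drawn with matplotlib 3.10.9. Calls needed a 2-fold ratio and 1 FPKM in the higher line. No test was run, since values per sample are needed for one. The subunits and lists were chosen with earlier results of these data known. Named genes were all 10 subunits, OVOL1 and OVOL2, list members past 2-fold in any table (at most 6 per list), and the 3 nearest patterns of each subunit past 2-fold. Some list members within 2-fold are named as well. Part of the list of hemidesmosome and laminin-binding partners is not reported here. Gene strand and overlaps came from GENCODE on GRCh37, and promoter stretches from RefSeq on GRCh38.p14. Alternatives were other pseudocounts, floors, fold thresholds, centring, and summed isoform values.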

Additional observations from a re-analysis of the deposited data

How the results depend on the processing

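No paired analysis was possible because the tables give 1 pooled value per line, and for the same reason no fit with the replicate block was run and no replicate could be left out. Of 280 alternative values of the 40 log2 ratios of the subunits, 272 kept their side of the threshold. Several settings could change little by construction. The summed isoform values are the gene values again, and removing the floor leaves each ratio as it is. Centring shifts each ratio only by the small median over all genes. All 40 values kept their side under each of these settings, which is no sign of robustness. Among ratios past 2-fold, 0 reversed their direction. The direction of ratios within 2-fold was not compared. At a threshold of 1.5-fold, 7 more ratios were past it, and with a floor of 5 FPKM the PC3-Epi ratio of ITGB8 was left out. The number of subunits past the threshold became 4 in the OVOL2 line, 8 in PC3-Epi and 2 between the OVOL lines at 1.5-fold (ITGA2 added), and stayed within 1.5 times the reported count under the other settings. A share shift of 5 points was met by 4 isoforms in the OVOL1 line (ITGA6 and ITGB4), 2 in the OVOL2 line (ITGB4) and 7 in PC3-Epi (ITGA6, ITGB1 and ITGB4).

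The count over all genes moved more. For the OVOL1 line it was 484, and 300 with 1 FPKM added, 2169 with no floor, 237 with a floor of 5 FPKM and 1073 at 1.5-fold. For the OVOL2 line 904 became 595, 2729, 479 and 1851 under these settings. For PC3-Epi 1954 became 4211 with no floor, 1129 with the higher floor and 3915 at 1.5-fold. Between the OVOL lines 375 became 227, 1917, 210 and 910. Without a floor the split of higher and lower genes went from 296 and 188 to 929 and 1240 with OVOL1, and from 232 and 143 to 1436 and 481 between the OVOL lines. The lower thresholds and floors admit more genes by construction. Depth is unknown, so what it limits cannot be given beyond the low values of ITGB6 and ITGB8.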
